A study of Caenorhabditis elegans with 2 samples.

Results

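The genes mml-1, mxl-1, mxl-2, mxl-3 and hlh-30 of *Caenorhabditis elegans* were examined as partners and relatives of the Mad-like factor MDL-1, 5 genes of 19973 protein-coding genes. They were taken by name, and every peak summit within the gene or up to 5 kb upstream of its start was listed, which is called the region of the gene here. The data are ChIP-seq peak lists from whole L2 larvae of mixed sex, in 2 biological replicates of 1 group. The animals were of strain OP355, with the allele unc-119(tm4063) on chromosome III and the transgene wgIs355, which tags a transcription factor with eGFP. Source and antibody labels give mdl-1 as the target, whereas the description gives ZK337.2. The samples hold no other genotype, stage or treatment, no control library was used here, and the tagged protein comes from an added transgene in all samples. Whole animals mix all tissues, so a peak cannot be placed in a cell type.

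Proteins of the Myc, Max and Mad network carry a basic helix-loop-helix leucine zipper domain and bind DNA as dimers. In mammals Max is the shared partner, and Myc-Max dimers generally activate while Mad-Max dimers repress genes with the canonical E-box CACGTG. The worm has Max-like proteins (MXL-1, MXL-2 and MXL-3), a Mad-like protein (MDL-1, which pairs with MXL-1) and a Myc- and Mondo-like protein (MML-1, which pairs with MXL-2). HLH-30 is the worm counterpart of the mammalian lysosome and autophagy regulator TFEB and binds similar E-boxes, and MXL-3 and HLH-30 act in opposite ways on lysosomal lipase genes in worms.

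Relaxed peak lists, which keep weak peaks, number 30000 entries per replicate, against 28651 when replicates were pooled. A strict set of 2103 peaks was selected by the authors with the irreproducible discovery rate (IDR), a measure of how well peak ranks repeat. Its lowest signal was 32.5, which was also the pooled signal at a cut of 2103 peaks. In the regions examined, every IDR peak had the same signal and rank in the pooled list. For these genes the IDR set therefore held the pooled peaks of highest signal, and the IDR and pooled lists are not separate evidence. Read depth is unknown, and signal is the authors' own value for a peak with no stated scaling, so signals are compared only within a list and ranks are given beside them. The 2103 peaks of highest signal in each replicate are called its top list. The mdl-1 region itself held 7 IDR summits, including the peaks ranked 1 and 2 of the whole set, at 97 bp and 4586 bp upstream of the mdl-1 start. The transgene may carry this locus as well. Extra copies and binding cannot be told apart for the mdl-1 peaks, which was not tested. The mdl-1 IDR peak 3124 bp upstream overlapped no peak in the replicate 1 list, so IDR membership does not show a peak in each replicate.

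IDR summits were found in the regions of 3 of the 5 genes, namely hlh-30, mml-1 and mxl-3, against 14.4% of all protein-coding genes. There were 10 such summits, 6 at hlh-30, 3 at mxl-3 and 1 at mml-1. The regions of mxl-1 and mxl-2 held none. In the replicates' top lists the same 3 genes had summits and the other members had none, beside a background of 14.2% of genes in replicate 1 and 14.4% in replicate 2. The regions differed in length. The hlh-30 region spans 25.2 kb, against 9.60 kb for mml-1, 6.17 kb for mxl-3, 6.18 kb for mxl-2 and 6.09 kb for mxl-1, and against a median of 7.03 kb over all genes. Per 10 kb of region there were 2.38 IDR summits at hlh-30, 4.87 at mxl-3, 1.04 at mml-1 and 0 at mxl-1 and mxl-2. The value over the nuclear chromosomes was 0.210. Any region of these lengths with at least 1 summit lies above that value, so nothing is read from this difference.

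**Figure D1:**
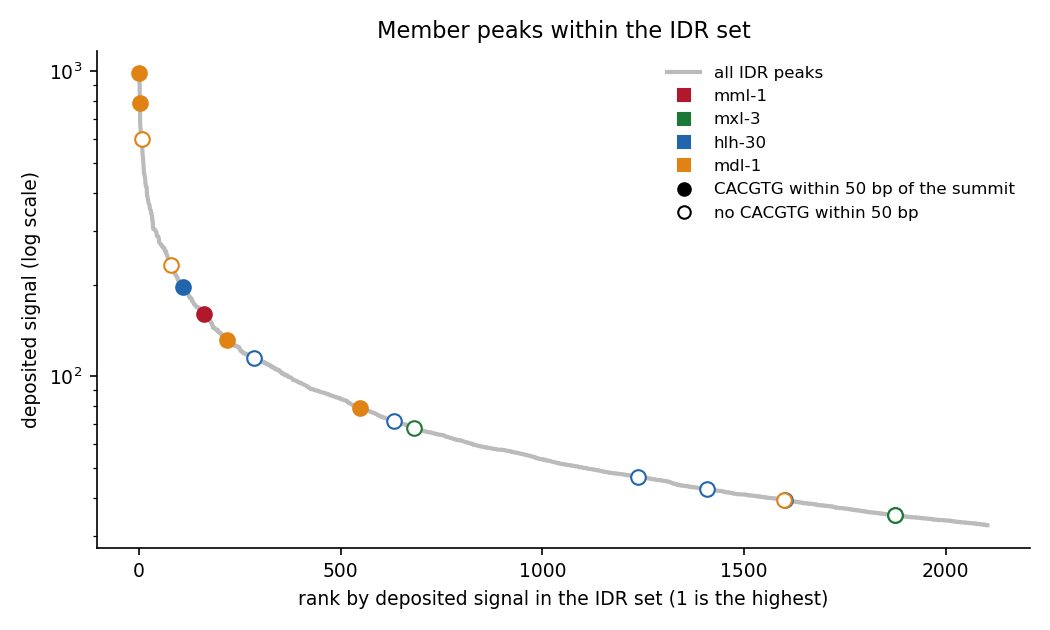
Deposited signal (log scale) against rank for all 2103 IDR peaks (grey line), with the peaks in the regions of mml-1, mxl-3, hlh-30 and mdl-1 as circles, filled where CACGTG lies within 50 bp of the summit. The highest members, at hlh-30 and mml-1, sit at ranks 109 and 161 and both are filled, while the mdl-1 peaks reach rank 1.

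The Myc- and Mondo-like gene mml-1 (WBGene00003378, chromosome III, 7370130 to 7374731, minus strand, WBcel235, the Ensembl name of ce11) carried a single IDR peak. It spanned 7376485 to 7376723 and its summit lay 1855 bp upstream of the gene start, outside the promoter window used here (1000 bp upstream to 200 bp downstream of any annotated transcript start). The peak had a signal of 160 and ranked 161 of 2103. In replicate 1 it had a signal of 62.5 and ranked 149 of 30000, and in replicate 2 a signal of 98.9 and ranked 171 of 30000. Both replicates thus placed it within the highest 0.570% of their lists. The summit was in the intergenic stretch between mml-1 and T20B12.7, the next gene upstream on the same strand, and mml-1 was the nearest protein-coding start.

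The mml-1 peak is shown for its E-box. Its summit window, 50 bases on either side of the summit at chrIII:7376536-7376636 (ce11, read on the minus strand, with CACGTG in capitals; this and the sequences that follow are from the RefSeq copy of WBcel235), reads as follows.
mml-1, 1855 bp upstream: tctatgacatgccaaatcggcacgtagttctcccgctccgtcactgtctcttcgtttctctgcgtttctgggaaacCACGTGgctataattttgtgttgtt

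The site lay 26 bp from the summit of the pooled peak, 30 bp from that of replicate 1 and 86 bp from that of replicate 2. A second CACGTG lay inside the same peak, 108 bp from the pooled summit and 48 bp from the replicate 2 summit. Between the pooled list and replicate 2 the summit moved by 60 bp, toward this second site. The mml-1 region held 4 CACGTG sites in all. The site closest to the gene start, 366 bp upstream, had its nearest IDR summit 1484 bp away, and no listed peak of any of the 4 lists covered it.

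Weaker summits at mml-1 did not enter the IDR set. One lay 876 bp upstream in the pool, with a signal of 21.4, a rank of 3695 and a −log10 q of 2.75. Replicate 2 had it at 880 bp upstream with a rank of 3146, and the closest counterpart in replicate 1 was a summit 677 bp upstream at rank 14379 with a −log10 q of 0.99. This position is inside the promoter window, so the promoter-proximal signal at mml-1 was weak in replicate 1 and stronger, though below the top list, in replicate 2.

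The TFEB-like gene hlh-30 (WBGene00020930, chromosome IV, 4014793 to 4034951, minus strand) had 6 IDR summits, a number reached by 14 genes, or 0.0701% of all protein-coding genes. The highest number at any gene was 10. At its density of summits per length or above it were 1.49% of genes. The gene has 13 annotated protein-coding transcripts that begin at 10 positions spread over most of its length, and 5 of the 6 summits fell in introns downstream of the outermost start. Internal starts lie 167, 6824 and 7888 bp from the outermost one, then in a cluster from 15907 to 15912 bp, and at 16544 and 16620 bp. None lies between 7888 and 15907 bp.

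The hlh-30 peak of highest signal was intronic, at 4025937 to 4026209. Its summit lay 8877 bp downstream of the outermost start and 989 bp downstream of the start of transcripts W02C12.3d.1 and W02C12.3e.1. It had a signal of 197 and ranked 109 of 2103 in the IDR set. In replicate 1 it had a signal of 69.4 and ranked 127, and in replicate 2 a signal of 126 and ranked 109. It was the first-ranked peak of the region in both replicates. Alone among the IDR peaks at hlh-30 it had CACGTG within 50 bp of its summit, 9 bp from the pooled summit, 19 bp from that of replicate 1 and covering that of replicate 2.

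The second peak by signal spanned 4020060 to 4020188 and was narrower, at 129 bp against 376 bp for most pooled peaks. Its summit was intronic, 14810 bp downstream of the outermost start and 1097 bp upstream of the start of the short transcript W02C12.3f.1. The noncoding RNA gene W02C12.4 (4019990 to 4020060, other strand) lies inside hlh-30, and the peak begins at its last base. The peak therefore cannot be assigned to hlh-30 by position alone. The signal was 115 and the rank 285 in the IDR set, with 53.5 and rank 195 in replicate 1 and 59.0 and rank 412 in replicate 2. No CACGTG lay anywhere in this peak. The next peak by signal had its summit 241 bp upstream of the start shared by W02C12.3b.1 and W02C12.3c.1, which is 6583 bp inside the gene. It had a signal of 71.4 and rank 631, with 24.0 and rank 848 in replicate 1 and 54.2 and rank 482 in replicate 2. These 3 summit windows are shown because their peaks have the highest signals at hlh-30 and differ in the E-box, with CACGTG in capitals where present. They are at chrIV:4026024-4026124, chrIV:4020091-4020191 and chrIV:4028318-4028418 (ce11, minus strand).
hlh-30, 8877 bp inside: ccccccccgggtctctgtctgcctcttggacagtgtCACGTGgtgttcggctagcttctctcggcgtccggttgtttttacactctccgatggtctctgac
hlh-30, 14810 bp inside: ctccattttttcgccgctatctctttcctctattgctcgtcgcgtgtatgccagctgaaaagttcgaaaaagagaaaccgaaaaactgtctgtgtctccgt
hlh-30, 6583 bp inside: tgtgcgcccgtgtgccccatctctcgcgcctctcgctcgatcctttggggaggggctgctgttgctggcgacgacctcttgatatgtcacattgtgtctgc

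The remaining IDR peaks at hlh-30 ranked in the lower part of the set. The summit at the outermost start lay 64 bp upstream of it, with a signal of 42.7 and rank 1407. Replicate 2 ranked this peak 964 with a signal of 34.9, while replicate 1 ranked it 2809 with a signal of 11.0 and a summit 91 bp away, in the 5′ UTR exon, so it was in the top list of replicate 2 only. The summit 10634 bp inside the gene had a signal of 46.8 and rank 1237, with rank 1091 in replicate 1 and 1496 in replicate 2. The summit 1370 bp inside the gene had a signal of 39.2 and rank 1602, with rank 1375 in replicate 1 and 1855 in replicate 2. Of the 6 hlh-30 peaks, the one at the outermost start was the only one that differed between replicates in its membership of the top list.

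**Figure D2:**
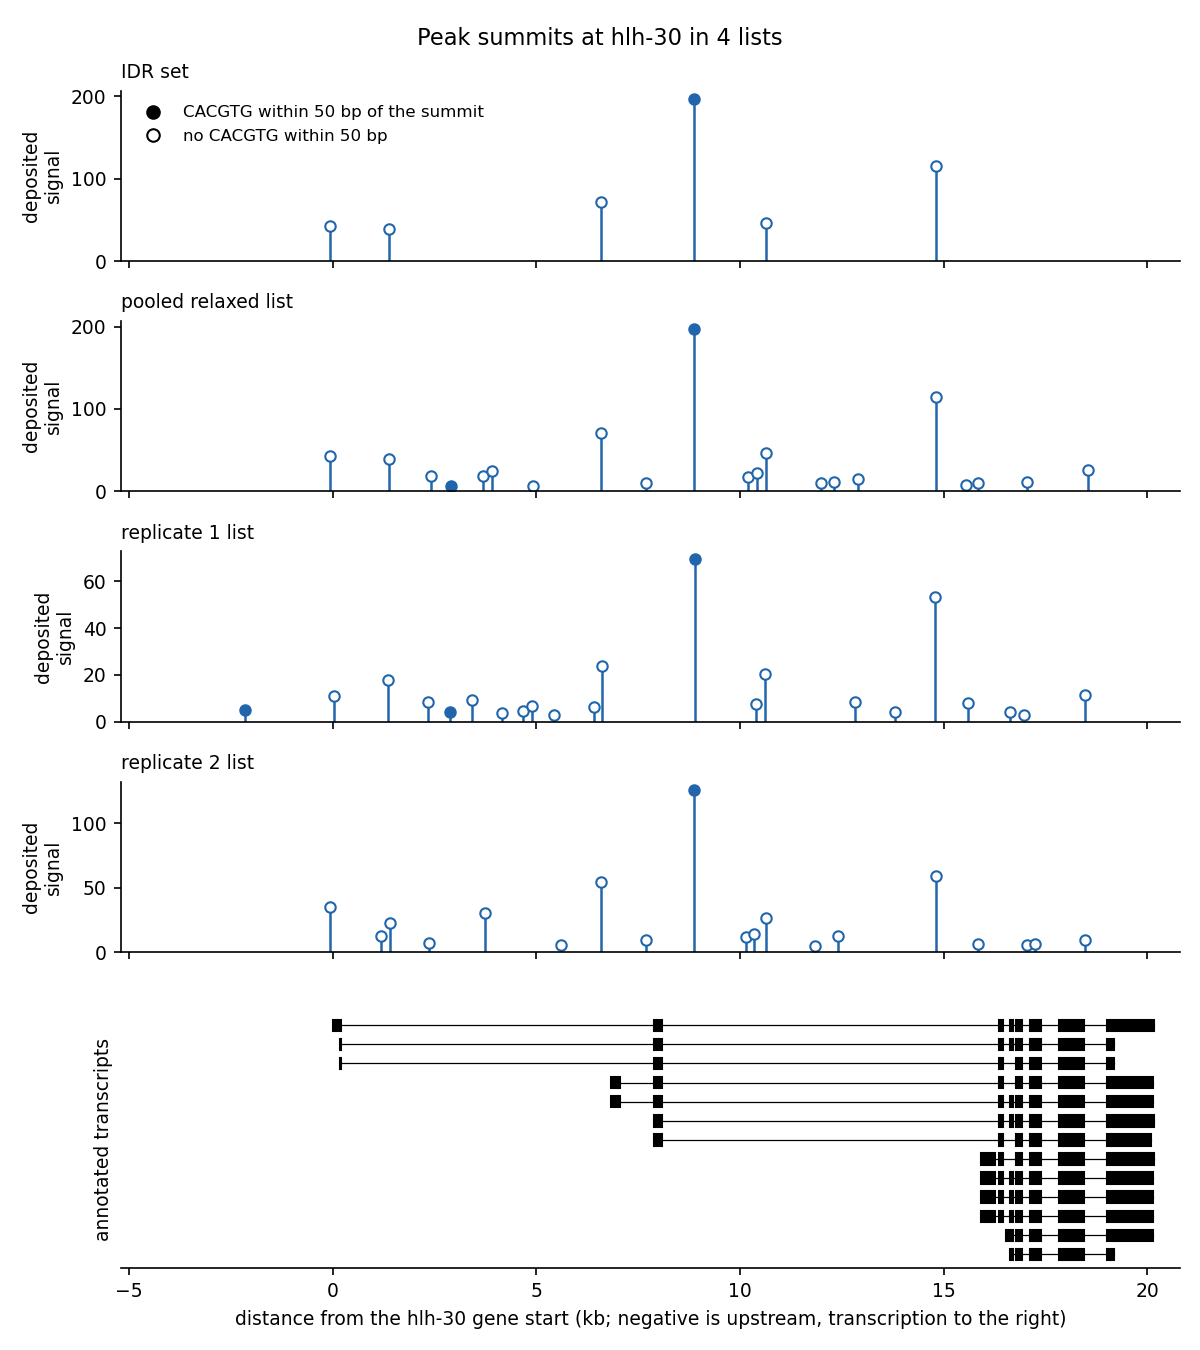
Deposited signal of every summit in the hlh-30 region in the IDR set, the pooled relaxed list and the list of each replicate (y axis, own scale per panel), against distance from the outermost gene start in kb, with the annotated transcripts under it. The peaks 8877 and 14810 bp inside the gene are the highest of the region in all 4 lists. Their IDR and pooled values are the same. The filled circle at the peak 8877 bp inside the gene marks CACGTG within 50 bp of the summit.

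The relaxed lists held 21 summits in the hlh-30 region in the pool, 22 in replicate 1 and 19 in replicate 2. At a −log10 q of at least 2 there were 11 in the pool, 14 in replicate 1 and 8 in replicate 2. One intronic summit was in the top list of replicate 2 and not in the IDR set, 3744 bp inside the gene with a signal of 30.2 and rank 1226. The pool listed separate summits there at 3688 bp (rank 4504) and 3909 bp (rank 3069), and the closest in replicate 1 was at 3415 bp (rank 3630). Upstream of the outermost start, past the summit at 64 bp, the pool and replicate 2 listed no summit out to 5 kb. Replicate 1 listed 1 there, 2155 bp upstream at rank 10323, with a −log10 q of 1.64.

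The Max-like gene mxl-3 (WBGene00003511, chromosome X, 13349639 to 13350804, minus strand) had 3 IDR summits, all upstream, and 0.586% of protein-coding genes had 3 or more. The highest peak spanned 13353534 to 13353909 and had its summit 2918 bp upstream, a signal of 67.7 and rank 681. It had a signal of 23.0 and rank 909 in replicate 1, and 46.0 and rank 629 in replicate 2. The summit nearest the gene lay 221 bp upstream, in the promoter window, with a signal of 35.1 and rank 1873. The noncoding RNA gene C49F8.5 begins beyond it, 305 bp from mxl-3 on the other strand (13351110 to 13351321). This peak, at 13350837 to 13351212, overlaps the start of C49F8.5. Its summit lies between both starts, so it cannot be assigned to mxl-3 by position alone. Replicate 2 gave this promoter peak a signal of 26.1 and rank 1512, within its top list, and replicate 1 a signal of 9.88 and rank 3335, outside it. The other summit lay 4373 bp upstream with a signal of 35.1 and rank 1875, with 14.5 and rank 1828 in replicate 1 and 23.9 and rank 1738 in replicate 2.

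No IDR summit in the mxl-3 region had CACGTG within 50 bp, although the region held 4 such sites. The peak 2918 bp upstream contained a CACGTG that lay 74 bp from the pooled summit, 77 bp from that of replicate 1 and 33 bp from that of replicate 2. A site 4070 bp upstream lay 41 bp from a separate pooled summit of lower signal, at 4116 bp upstream with a signal of 21.6, rank 3655 and a −log10 q of 2.82. That summit ranked 3099 in replicate 2 with a −log10 q of 3.32, and 16593 in replicate 1 with a −log10 q of 0.78.

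The 5 kb limit cut through a longer run of peaks upstream of mxl-3. Between 5 and 10 kb upstream there were 3 more IDR summits, at 5852, 7975 and 9270 bp. Of these, the peak 7975 bp upstream had a signal of 231 and rank 80, above every member peak listed so far, with rank 115 in replicate 1 and 72 in replicate 2. The peak 5852 bp upstream had a signal of 107 and rank 330, and that 9270 bp upstream a signal of 32.7 and rank 2094. All 3 lay outside annotated protein-coding genes. The nearest protein-coding start to the peak at 7975 bp was that of C49F8.15, 3807 bp away, so it cannot be assigned to mxl-3 by position alone. None of the other members had an IDR summit between 5 and 10 kb upstream.

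The promoter peak of mxl-3 and the peak outside the region are shown because the E-box was found in the distal window and not in the promoter window. They are at chrX:13350975-13351075 and chrX:13358729-13358829 (ce11, minus strand), with CACGTG in capitals.
mxl-3, 221 bp upstream: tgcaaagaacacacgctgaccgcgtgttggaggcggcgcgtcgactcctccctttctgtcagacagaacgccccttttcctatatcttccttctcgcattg
mxl-3, 7975 bp upstream: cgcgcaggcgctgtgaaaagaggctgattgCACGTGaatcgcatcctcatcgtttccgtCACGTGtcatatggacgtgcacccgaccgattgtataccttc

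The Max-like gene mxl-2 (WBGene00003510, chromosome III, 186949 to 188131, minus strand), whose product pairs with MML-1, had no IDR summit. Its nearest IDR summit lay 157516 bp from its start. In the pooled relaxed list a summit lay 288 bp upstream, with a signal of 11.4, rank 10502 and a −log10 q of 0.50. Replicate 1 had this summit at 260 bp upstream with a signal of 7.89, rank 4857 and a −log10 q of 3.14. Replicate 2 listed no summit in the whole region. The stretch upstream of mxl-2 leads into ubc-20, which starts 706 bp from it on the other strand, so a summit there lies between both starts. The region held 4 CACGTG sites, none within 50 bp of a summit in any list.

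The gene mxl-1 (WBGene00003509, chromosome V, 11244839 to 11245926, plus strand), which encodes the Max-like partner of MDL-1 itself, had no summit in the pooled list, although 78.9% of protein-coding genes had at least 1. Replicate 1 listed none and replicate 2 listed 1, at 3321 bp upstream with a signal of 4.82, rank 27574 and a −log10 q of 0.06. The nearest IDR summit was 67936 bp from its start. The region held no CACGTG. The gene pgap-1 ends 112 bp upstream of the mxl-1 start on the same strand, so most of the 5 kb upstream is the body of other genes.

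**Figure D3:**
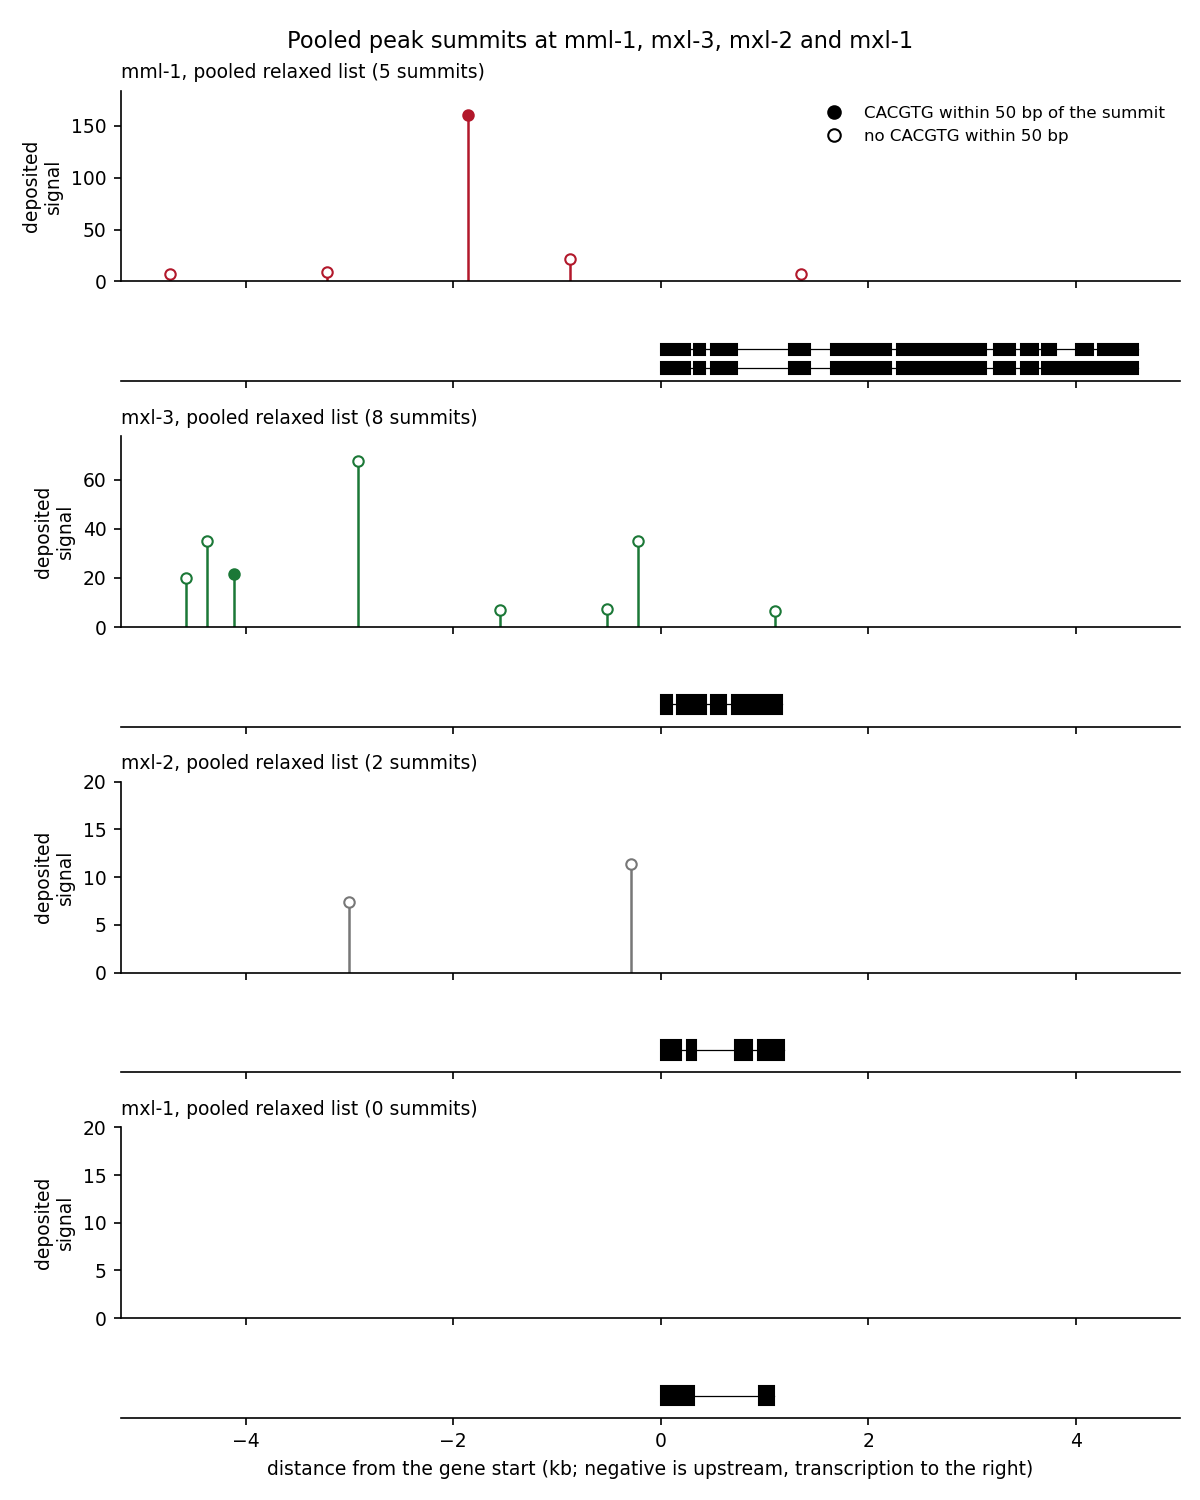
Deposited signal of every pooled summit in the regions of mml-1, mxl-3, mxl-2 and mxl-1 (y axis, own scale per panel) against distance from the gene start in kb, with the annotated transcripts under each panel. The mml-1 panel has 1 high filled peak 1855 bp upstream, mxl-3 has a run of upstream peaks, mxl-2 reaches a signal of 11.4 at most and mxl-1 has no pooled summit.

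Replicates were compared through the 10 IDR peaks. All 10 overlapped a peak in each replicate's relaxed list, 10 were in the top list of replicate 2 and 8 in that of replicate 1, so 8 of 10 were in both, against 68.9% of all IDR peaks. Those missing from the replicate 1 top list were the peak at the outermost start of hlh-30 and the promoter peak of mxl-3. Summits of the replicates lay from 2 to 91 bp from the IDR summit, with a median of 10.5 bp. The rank was nearer the top in replicate 1 for 4 peaks and in replicate 2 for 6 peaks. No test was made, since 2 replicates of 1 group give no contrast between conditions.

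**Figure D4:**
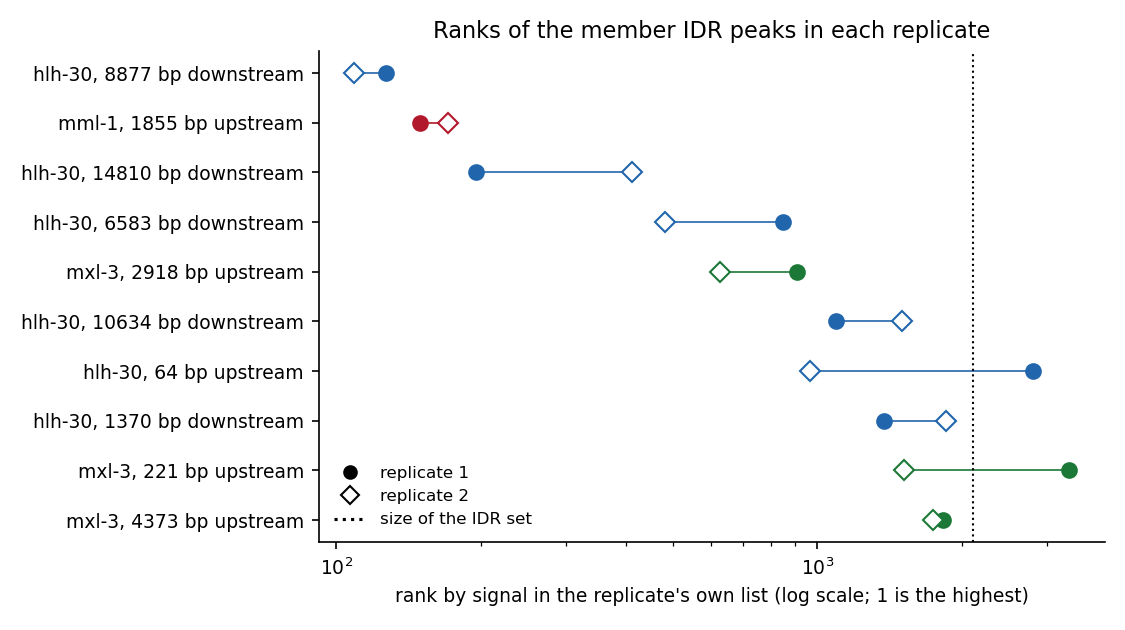
Rank by signal of each of the 10 IDR peaks in the list of replicate 1 (filled circles) and replicate 2 (open diamonds), on a log axis, with a dotted line at 2103. Only the peaks 64 bp upstream of hlh-30 and 221 bp upstream of mxl-3 have a replicate 1 point right of the line.

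In the promoter window 2 of the 5 genes had an IDR summit, hlh-30 (at the outermost start and at the start 6824 bp inside) and mxl-3, beside 6.54% of all protein-coding genes. By the highest pooled signal in each region, the order was hlh-30, mml-1, mxl-3, mxl-2 and mxl-1. As a percentile (the percentage of genes whose highest signal in the region is no higher, with genes that have no summit in the list set to 0), hlh-30 stood at 99.1 in replicate 1 and 99.2 in replicate 2, and mml-1 at 98.9 and 98.8. The values of hlh-30 and mml-1 were close in both replicates, and mxl-3 was lower at 93.5 in replicate 1 and 95.5 in replicate 2. The order of the last pair was not shared by the replicates, with mxl-2 at 72.3 in replicate 1 and 0 in replicate 2, and mxl-1 at 0 in replicate 1 and 19.9 in replicate 2.

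Genes nearest in these percentiles over the replicate lists and the pooled list were named as a description of similar values only. For hlh-30 they were letm-1, lpin-1 (whose highest peak is the same one, with a signal of 192) and F20B6.9 (205). For mml-1 they were T28F4.1 and asic-2 (a shared peak with a signal of 158) and H41C03.3 (168). For mxl-3 they were hyl-1 (69.9), dnj-19 and nhr-47 (a shared peak with a signal of 67.8). The largest differences of percentile ranged from 0.0300 to 0.320.

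Across the 10 IDR peaks CACGTG lay within 50 bp of 2 summits (20%), beside 17.2% of all IDR summits, and these were the 2 member peaks of highest signal. In the whole IDR set, too, peaks of high signal had CACGTG more often than peaks of low signal. The relaxed form CAYGTG lay at the same 2 summits, beside 27.3% of all. Any E-box CANNTG lay at 5 of 10, beside 48.7%, and GAGAGA at 4 of 10, all at hlh-30, beside 32.2%. The sequence CTGCGTCT lay at 0 of 10, beside 12.2%. Median G and C content of the windows was 50%, beside 47.5% for all IDR summits. All motifs were read on both strands, and CACGTG is also a CAYGTG and a CANNTG. With 10 peaks at 3 genes, nothing particular to these genes is read from the shares.

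From the side of the sequence, the 5 regions held 18 CACGTG sites, of which 2 (11.1%) lay within 50 bp of an IDR summit, beside 2.13% of the 17729 sites in the nuclear chromosomes. The regions of hlh-30, mxl-3 and mml-1 also held more IDR summits per length than the chromosomes, as any region of their length with a summit does. With 2 sites, nothing is read from these shares. The hlh-30 region had 6 sites with 1 at a summit, mml-1 had 4 with 1, and mxl-2 and mxl-3 had 4 each with none. In the mdl-1 region, where the limit of the transgene given above holds, 4 of 12 sites were at a summit. The mxl-2 region thus held E-boxes without an IDR peak.

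Other genes of the network were read from lists chosen for their roles, with earlier results of these data known. Of 25 genes, 9 had an IDR summit in the region and 5 in the promoter window, beside 14.4% and 6.54% of all genes. Both counts include mdl-1, the target by the source and antibody labels, and the 9 counts a peak shared by lin-53 and rba-1 at each of them. Among other zipper factors, mdl-1 had 7 IDR summits and sbp-1, the SREBP counterpart, had none. Of 6 Sin3 corepressor genes, the complex that mammalian Mad proteins recruit, lin-53 and rba-1 had a summit, and it was the same peak (signal 116, rank 284), 249 bp upstream of lin-53 and 1902 bp upstream of rba-1. The genes sin-3, hda-1, hda-2 and hda-3 had none.

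Of 8 lysosomal lipase genes, lipl-2 had a summit 1520 bp upstream (signal 205, rank 100, with ranks 134 in replicate 1 and 95 in replicate 2), and lipl-5 had one 4391 bp upstream (signal 40.2, rank 1548). Neither had CACGTG within 50 bp, and the other lipase genes had none. In the list for nutrient sensing and nuclear transport, 4 of 9 genes had at least 1. They were the 14-3-3 genes par-5 (signal 117, 137 bp upstream) and ftt-2 (57.9, 452 bp upstream, the higher of its 2 summits). The others were the folliculin gene flcn-1 (85.7, 2039 bp upstream) and the small GTPase gene rheb-1 (34.0, 282 bp upstream). The rheb-1 peak ranked 6472 in replicate 1 and 1292 in replicate 2. Genes of this list without a summit were let-363, daf-15, raga-1, ragc-1 and xpo-1.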

How the data were processed

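ChIP-seq peaks of whole L2 larvae were used as deposited, in the ce11 lists. Per the labels, fragments were 150 to 350 bp. The authors deposited, per peak, a signal value of unstated scaling and a −log10 q-value that reaches a ceiling. As the deposited files are named, the lists are relaxed peaks per replicate and pooled, and an optimal IDR set. Not given in the sources used here: aligner, caller, control treatment, depth and IDR threshold. The ce10 lists were not used. Of all ce11 peaks, 0 passed a chromosome end of the reference.

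Genes came from Ensembl release 115 (WBcel235), and sequence from the RefSeq copy. Summits are column 2 plus column 10, written 1-based. A promoter window spans 1000 bp upstream to 200 bp downstream of any annotated transcript start. Motifs lie wholly within 50 bp of the summit. Highest-signal lists hold 2103 peaks, compared by overlap of at least 1 bp. There was no test. Look-ups were tested on simulated data. Members and lists were chosen with earlier results of these data known. Named genes are the members, mdl-1, listed genes with an IDR summit and genes beside a member with an IDR summit. The 3 genes nearest in percentile to each such member are named as well. Genes named for having no summit, for lying beside mxl-2 or mxl-1, or for peaks beyond 5 kb were chosen after values were seen. The noncoding RNA genes were also named after values were seen. Tools were Python 3.11.15, numpy 2.4.6, pandas 2.3.3 and matplotlib 3.10.9.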

Additional observations from a re-analysis of the deposited data

How the results depend on the processing

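Over 41 recomputed counts, 30 stayed within 1.5 times of the reported value and 11 did not. Members with an IDR summit stayed at 3, or 2 in the 500 highest-signal IDR peaks. The 10 member summits became 5 in the 1000 highest-signal and 3 in the 500 highest-signal IDR peaks, all in both replicate top lists (5 and 3), and 18 in the pooled list at a −log10 q of at least 2. Members with a promoter summit became 1 in the 1000 highest-signal and 0 in the 500 highest-signal peaks. Summits with an E-box were 4 with 10 kb upstream, 5 for CANNTG and 1 within 25 bp. With 1 replicate left out, the ranges were 3 to 3 members, 8 to 11 summits, 1 to 2 members with a promoter summit (1 without replicate 2, hlh-30 through its start 6824 bp inside the gene) and 2 to 2 E-box summits. Without replicate 1 the E-box summits were at hlh-30 and mxl-3, and not at mml-1. No paired analysis was possible because there is 1 group. Depth is unknown, so a gene without a peak cannot be called unbound.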

Other observations

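Some E-boxes at hlh-30 lay close to weak summits outside the IDR set. At hlh-30, the replicate 1 summit 2155 bp upstream, at rank 10323, lay 11 bp from a CACGTG at 2139 bp upstream, and the nearest replicate 2 summit to that site was 2068 bp away. Inside hlh-30, a CACGTG 2853 bp downstream of the outermost start lay 39 bp from a pooled summit of rank 27920 and 26 bp from a replicate 1 summit of rank 15909. No replicate 2 summit lay closer to it than 480 bp. These are single values with −log10 q under 2, given with no test.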
